A study of Homo sapiens with 6 samples.

Results

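The 10 genes described here encode cytokines and receptors of the IL-6 and IL-1 families, with 2 interleukin receptors from neighbouring systems. They were taken from the gene count table by symbol and are IL6, LIF, IL11, IL6ST, LIFR, IL1B, IL33, IL1R1, IL7R and IL13RA2, that is 10 of 58735 annotated genes. IL7R and IL13RA2 belong to neither family by receptor: IL7R is a receptor chain for IL-7 and TSLP, and IL13RA2 binds IL-13. Cytokines of the IL-6 family act through receptor complexes that share the signal-transducing chain gp130, encoded by IL6ST. IL-6 and IL-11 bind a private receptor chain before gp130 is recruited, whereas LIF joins gp130 to the LIF receptor, and the complexes signal through JAK kinases and STAT3 with SOCS3 as feedback inhibitor. IL-1 binds IL1R1 together with the accessory chain IL1RAP and signals through MyD88 and the IRAK kinases to NF-kB, and IL-33 uses the related receptor IL1RL1. Bone marrow stromal cells are known as sources of IL-6, LIF and IL-11, which act on blood-forming cells, osteoblasts and osteoclasts.

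RNA was measured in UE7T-9, an immortalised line of human mesenchymal stem cells (MSC) from bone marrow, kept in DMEM. The control group was UE7T-9 with genotype WT (3 libraries), and the SRRM4 KO group was UE7T-9 infected with a CRISPR v2 lentivirus carrying a guide RNA against SRRM4, a neural splicing regulator (3 libraries). The SRRM4 KO line was 1 clone grown from a diluted single cell, in which the study's protein assays found SRRM4 reduced but not fully lost, and no clone of control cells or cells infected with an empty vector is named. Effects of the deletion, of the infection and of the choice of that clone cannot be told apart, and no label says that the 3 libraries of a group came from separate cultures, so p-values measure only the spread between these samples, which may be technical. SRRM4 had 0 counts in all 6 libraries, so its RNA does not check the labels.

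The libraries held 21496117 to 23868323 counts. Among the control libraries, replicate 1 was unlike the rest. It had 22403 genes with at least 1 count against 20613 and 20674, and its counts differed from those of control replicates 2 and 3 by a chi-square per degree of freedom of 20.9 and 21.4, while the other pairs of replicates lay between 4.93 and 9.13. All 10 mesenchymal marker genes were detected in both groups, and their summed level was 40447 to 44558 CPM (counts scaled to the library's normalized total) in control and 16490 to 18498 CPM in SRRM4 KO, with 6 of 10 called lower. COL1A1 and COL1A2 made up most of that sum and were called lower. Besides these, LEPR (log2 fold change -3.49), THY1 (-2.43), CXCL12 (-2.28) and PDGFRB (-2.14) were called lower. By adjusted p alone, ENG (-0.34) was lower and NT5E (0.52) and VIM (0.36) were higher in SRRM4 KO. Of 14 blood cell markers, 7 never exceeded 3 counts in a library, CD3E and SPI1 among them at 0 throughout, and the sum, carried mostly by KIT, CD14 and CD4, was 74.6 to 83.1 CPM in control against 28.0 to 31.5 CPM in SRRM4 KO. Sums were 22.8 to 26.1 against 4.52 to 5.95 CPM for 7 endothelial markers and 1.86 to 3.67 against 1.73 to 3.28 CPM for 6 epithelial markers. The part of these shifts in the results below was not tested.

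Of the 10 genes, 8 had enough counts to be tested and IL33 and IL13RA2 did not. Calls needed a log2 fold change beyond 1 together with an adjusted p under 0.05 (edgeR's quasi-likelihood test, Benjamini-Hochberg). By this rule IL11 was called higher in SRRM4 KO and no member was called lower, where 5.45% of all 15341 tested genes were called higher and 7.14% were called lower. By adjusted p alone, IL11 and LIF rose and IL6ST and IL1R1 fell, where 20.7% of all tested genes were higher and 20.9% were lower. IL6, LIFR, IL1B and IL7R did not pass. The CPM of the groups did not overlap for 5 of the 8 tested members (LIF, IL11, IL1R1, IL7R and IL6ST), against 51.8% of all tested genes. The median log2 fold change of the 8 was 0.10, beside -0.01 over all tested genes. One of the 8, IL1B, passed the filter on low counts only through the SRRM4 KO libraries.

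**Figure D1:**
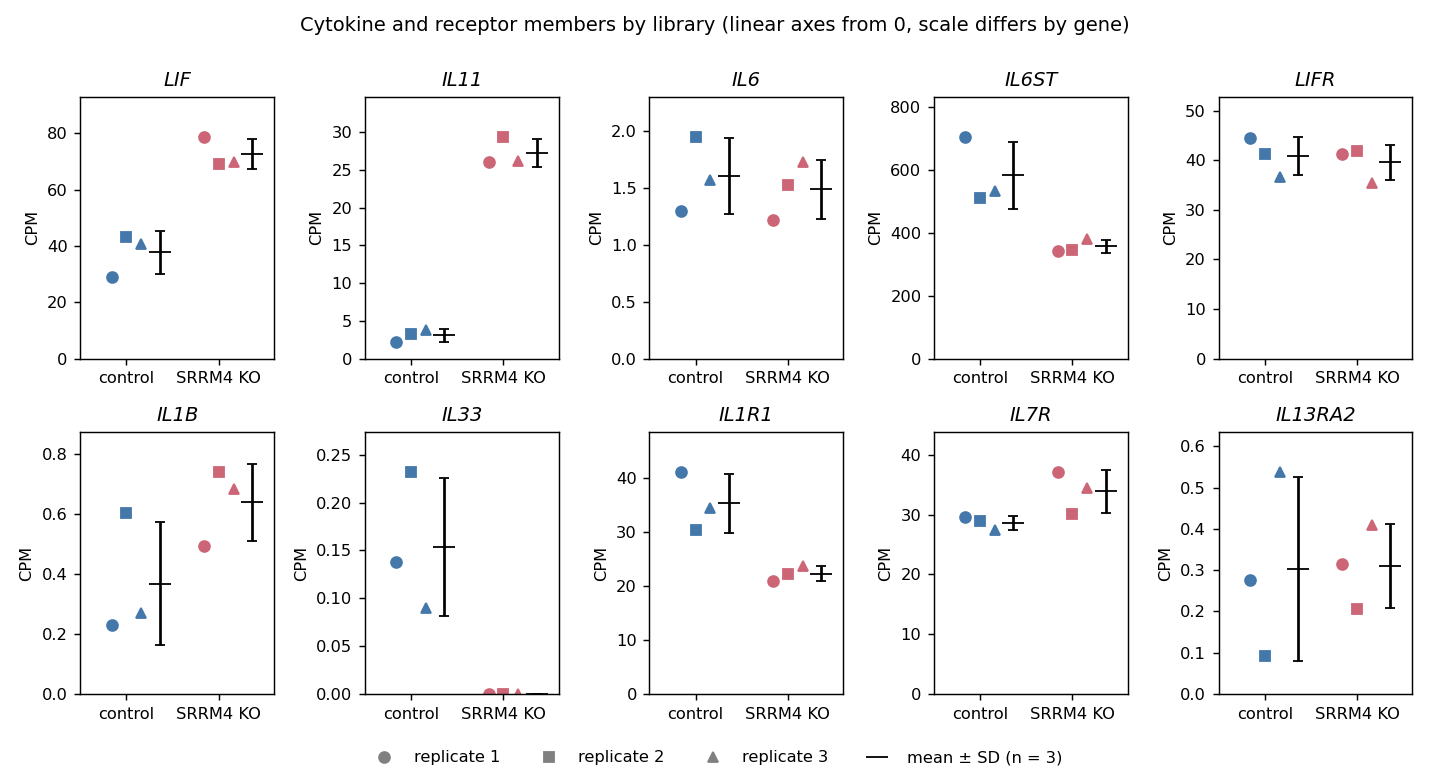
Scaled counts (CPM, y axis, linear from 0, a different scale in each panel) of the 10 genes in each of the 3 control and 3 SRRM4 KO libraries, with the mean and SD of each group beside the points and the replicate number as the symbol. LIF and IL11 lay higher and IL6ST and IL1R1 lower in every SRRM4 KO library, IL6 and LIFR overlapped, and IL33 had no count in SRRM4 KO.

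IL11, an IL-6 family cytokine of stromal cells that is known to act on blood progenitors and on bone, showed the greatest change of the 8 tested members. The control libraries held 47, 71 and 85 IL11 counts and the SRRM4 KO libraries 581, 716 and 577. On the CPM scale these were 2.17, 3.29 and 3.81 in control and 26.1, 29.4 and 26.2 in SRRM4 KO, so the lowest SRRM4 KO library lay far above the highest control library. The means were 3.09 ± 0.839 CPM (SD, n = 3) and 27.2 ± 1.88 CPM (SD, n = 3). IL11 was thus 8.79-fold higher in SRRM4 KO, a log2 fold change of 3.14 with a standard error of 0.182, a 95% interval of 2.75 to 3.53 and an adjusted p of 3.83e-09 by edgeR. In RNA from whole cultures, more cells expressing a gene and more RNA per cell cannot be told apart, and this holds for every difference given here. The gene (ENSG00000095752) lies at chr19:55364389-55370463 on the minus strand of GRCh38.

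The bases just upstream of IL11 are shown because it is the member with the largest difference, and those upstream of IL6 because IL6, a cytokine of the same family, did not pass the test. Each is written 5′ to 3′ on the strand of the gene, from RefSeq transcript starts on GRCh38.p14, at chr19:55370464-55370713 (minus strand) for IL11 and at chr7:22726950-22727146 (plus strand) for IL6, the latter cut short before an annotated exon. Capitals mark matches, on either strand, to the letters TGANTCA (AP-1), TTCNNNGAA (STAT) and TTGCNNAA (C/EBP), where N is any base, and to GGG and CC spaced by 5 bases of any kind (NF-kB).
IL11: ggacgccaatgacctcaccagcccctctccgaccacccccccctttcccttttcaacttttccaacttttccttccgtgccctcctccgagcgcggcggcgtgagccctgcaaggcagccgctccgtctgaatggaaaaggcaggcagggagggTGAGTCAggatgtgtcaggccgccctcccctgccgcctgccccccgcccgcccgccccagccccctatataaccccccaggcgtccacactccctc
IL6: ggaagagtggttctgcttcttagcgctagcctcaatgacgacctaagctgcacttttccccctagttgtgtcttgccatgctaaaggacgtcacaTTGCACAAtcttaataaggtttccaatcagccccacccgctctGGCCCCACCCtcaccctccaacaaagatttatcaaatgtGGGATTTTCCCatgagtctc
The IL11 window held 1 AP-1 match, at bases 155 to 161 counted from its 5′ end, and no match to the other motifs. The IL6 window held 1 C/EBP match at bases 96 to 103 and NF-kB matches at bases 139 to 148, 178 to 187 and 179 to 188, of which the last pair overlap on opposite strands, with no AP-1 or STAT match. Over 35116 windows of 250 bases upstream of annotated starts, 6.6% held the AP-1 letters, 54.4% the NF-kB letters, 6.6% the STAT letters and 9.1% the C/EBP letters. These are matches of letters, not binding sites. Among the 8 members with a window, 1 of 14 windows held an AP-1 match, that of IL11. So small a count cannot be told from the 6.6% over all windows. LIF and IL13RA2 had no entry.

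LIF, the leukemia inhibitory factor that is known for keeping mouse embryonic stem cells undifferentiated and for acting on osteoblasts, was also higher in SRRM4 KO. Its counts were 630, 933 and 910 in control and 1756, 1686 and 1539 in SRRM4 KO. In CPM it was 29.1, 43.3 and 40.8 against 78.8, 69.2 and 69.9, and the groups did not overlap. The lowest control value was that of control replicate 1. The means were 37.7 ± 7.59 and 72.7 ± 5.35 CPM (SD, n = 3 each), a 1.93-fold difference with a log2 fold change of 0.95, a standard error of 0.130, a 95% interval of 0.67 to 1.22 and an adjusted p of 3.16e-05. LIF passed the adjusted p and stood just under the fold threshold of 1, so it was not called. Without control replicate 2 or 3 its log2 fold change was 1.05 or 1.00 and it was called, and without control replicate 1 it was 0.79. LIF (ENSG00000128342) lies at chr22:30240447-30246851 on the minus strand, where the antisense genes AC004264.1 (17 to 64 counts) and LIF-AS1 (0 to 5 counts) overlap it. The reads carry no strand, so reads of overlapping genes cannot be told apart, but these counts are small beside those of LIF.

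IL6, the founding cytokine of the family and a product of many stromal cells, was low in both groups. It had 28, 42 and 35 counts in control and 27, 37 and 38 counts in SRRM4 KO. The ranges overlapped, from 1.29 to 1.95 CPM in control and from 1.21 to 1.73 CPM in SRRM4 KO. The log2 fold change was -0.11 with a standard error of 0.373, and its 95% interval of -0.90 to 0.69 leaves room for changes of either sign (adjusted p 0.844). IL6 (ENSG00000136244, chr7:22725884-22732002, plus strand) overlaps STEAP1B on the opposite strand, which had 41 to 147 counts and was called lower with a log2 fold change of -1.18 and an adjusted p of 0.00257, and AC073072.1, which had 0 to 10 counts. As the reads carry no strand, reads from the overlap cannot be told apart. The counts of STEAP1B were not small beside those of IL6, so the IL6 level is less certain than that of LIF.

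The 3 member ligands of the IL-6 family therefore stood differently to each other in the groups. Per kilobase of exon, LIF averaged 9.50 CPM in control and 18.3 in SRRM4 KO, IL11 averaged 1.16 and 10.2, and IL6 averaged 0.775 and 0.718. The per-length level of IL11 was 0.111, 0.113 and 0.139 of that of LIF in the control libraries and 0.492, 0.631 and 0.557 in the SRRM4 KO libraries. IL11 and IL6 overlapped in control, while in SRRM4 KO the lowest IL11 library (9.76) lay above the highest IL6 library (0.835).

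IL6ST encodes gp130, the signalling chain shared by the family, and was the most abundant of the 10 genes per length in both groups. Its counts were 15279, 10959 and 11877 in control and 7604, 8414 and 8377 in SRRM4 KO. In CPM these were 705, 508 and 532 against 341, 345 and 381, so each SRRM4 KO library lay below each control library, and control replicate 1 was the highest. The means were 582 ± 107 and 356 ± 21.6 CPM (SD, n = 3 each), and the level fell by 0.71 on the log2 scale with a standard error of 0.107, a 95% interval of -0.94 to -0.48 and an adjusted p of 7.36e-05. Without control replicate 1 the log2 fold change was -0.55, and the adjusted p stayed under 0.05. IL6ST (ENSG00000134352) lies at chr5:55935095-55994993 on the minus strand.

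LIFR, the chain that pairs with gp130 to bind LIF, showed no such difference. Its CPM was 44.6, 41.3 and 36.7 in control and 41.4, 41.9 and 35.5 in SRRM4 KO, with overlapping groups. The log2 fold change was -0.05, the 95% interval was -0.28 to 0.19 and the adjusted p was 0.775. This interval does not reach the -0.71 measured for IL6ST. Within a library, IL6ST was 20.2, 15.7 and 18.5 times LIFR per length in control and 10.5, 10.5 and 13.7 times in SRRM4 KO, and these ratios did not overlap. LIFR (ENSG00000113594) lies at chr5:38474963-38608354 on the minus strand.

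Among the 11 ligand genes of the IL-6 family, 8 were tested, 3 were called higher (IL11, CNTF and EBI3) and 1 was called lower. By adjusted p alone 5 rose and 2 fell, and the median log2 fold change was 0.85. Over all tested genes, 5.45% were called higher and 7.14% lower, and 20.7% and 20.9% by adjusted p alone. The counts of this list and of each list below are to be read beside these shares. EBI3, a subunit that IL-27 and IL-35 share, was at 9.55, 12.4 and 14.2 CPM in control and 24.2, 23.5 and 25.2 CPM in SRRM4 KO, with a log2 fold change of 1.01 and an adjusted p of 5.56e-05. It stood at the threshold, with a log2 fold change of 0.87 without control replicate 1 and 0.98 without SRRM4 KO replicate 3. CNTF, the ciliary neurotrophic factor, passed the filter on low counts only through the SRRM4 KO libraries, at 0.366 ± 0.0457 against 1.13 ± 0.350 CPM (log2 fold change 1.61, adjusted p 0.0201), and it was not called without control replicate 2, control replicate 3 or SRRM4 KO replicate 1. Its exons overlap the readthrough gene ZFP91-CNTF, which was listed at 0. CLCF1, a ligand of the CNTF receptor, passed the adjusted p alone, from 7.20 ± 2.09 to 12.1 ± 1.38 CPM with a log2 fold change of 0.75 (adjusted p 0.00668). The ligand genes OSM and IL31 had no count in any library.

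Of the 8 receptor genes of the family, 7 were tested and IL27RA was called lower, while none was called higher. By adjusted p alone IL31RA rose and IL6ST, IL11RA and IL27RA fell, and the median log2 fold change was -0.16. IL11RA, the private chain for IL-11, was at 11.3, 14.9 and 15.9 CPM in control and 8.71, 9.16 and 8.91 CPM in SRRM4 KO, a log2 fold change of -0.65 (adjusted p 0.0038) where its ligand rose. IL6R, the private chain for IL-6, averaged 17.5 ± 1.67 and 15.7 ± 2.10 CPM with a log2 fold change of -0.16 (adjusted p 0.412). OSMR, which pairs with gp130 for oncostatin M, averaged 304 ± 28.7 and 290 ± 20.6 CPM with a log2 fold change of -0.07 (adjusted p 0.573). IL27RA averaged 5.43 ± 0.985 and 2.54 ± 0.196 CPM with a log2 fold change of -1.09 (adjusted p 0.00148), which was -0.94 without control replicate 3. Per length, IL6ST exceeded OSMR in each control library (ratios 1.62, 1.39 and 1.40) and lay below it in each SRRM4 KO library (0.892, 0.997 and 0.955).

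**Figure D2:**
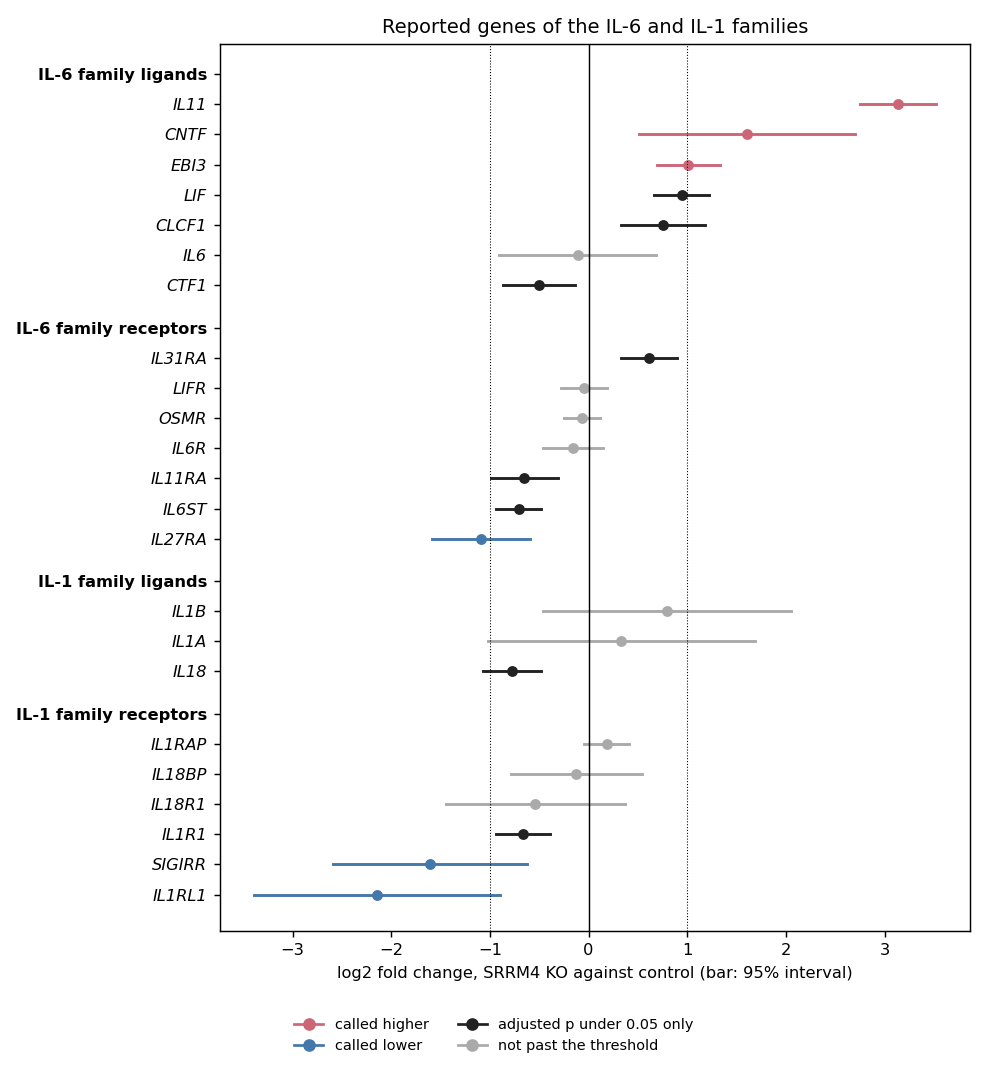
Log2 fold change of SRRM4 KO against control (x axis) with its 95% interval for the tested genes of the IL-6 and IL-1 families that are reported, in rows grouped by ligands and receptors. Dotted lines mark a log2 fold change of 1 in either direction, and IL11 at 3.14 stands apart to the right while LIFR, OSMR and IL6R lie near 0.

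Of 24 genes for JAK kinases, STAT factors and their feedback inhibitors, a list not limited to those that gp130 uses, 22 were tested. None was called higher and STAT4 was called lower, from 20.3 ± 1.63 to 7.20 ± 0.349 CPM (log2 fold change -1.49, adjusted p 5.63e-07). By adjusted p alone 0 rose and 5 fell, with a median log2 fold change of -0.12. The fall is near the share over all tested genes, of which 20.7% were higher and 20.9% lower by adjusted p alone. STAT3, the main STAT of the IL-6 family, was at 269 ± 9.25 CPM in control and 246 ± 5.57 CPM in SRRM4 KO. Its log2 fold change was -0.13 (adjusted p 0.182). Among 13 genes known to respond to STAT3, all tested, IER3 was called higher (log2 fold change 1.35, adjusted p 2.22e-08) and FOS was called lower (-1.11, adjusted p 7.99e-07, and -0.98 without control replicate 3). The list as a whole had 2 genes higher and 4 lower by adjusted p alone and a median log2 fold change of -0.09. SOCS3, the feedback inhibitor that stands on both of these lists, was at 32.4 ± 4.63 and 27.7 ± 2.19 CPM with a log2 fold change of -0.23 (adjusted p 0.164).

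The IL-1 family members were mostly at or near the limit of detection. IL1B, the secreted form of IL-1 made after inflammasome cleavage, had 5, 13 and 6 counts in control and 11, 18 and 15 counts in SRRM4 KO. The ranges of 0.231 to 0.603 and 0.494 to 0.739 CPM overlapped, and the log2 fold change of 0.79 had a standard error of 0.589, a 95% interval of -0.47 to 2.05 and an adjusted p of 0.308. IL33, an alarmin that is stored in the nucleus and released from damaged cells, was seen with 3, 5 and 2 counts in control and with no count in SRRM4 KO. As 3 counts correspond to 0.123 to 0.139 CPM in these libraries, IL33 was not detectable in SRRM4 KO at this depth, and its groups are too close to the floor for a fold change. With no filter on low counts its adjusted p was 0.153. IL1B (ENSG00000125538) lies at chr2:112829751-112836903 on the minus strand and IL33 (ENSG00000137033) at chr9:6215786-6257983 on the plus strand.

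IL1R1, the receptor through which both forms of IL-1 signal, was well detected and lower in SRRM4 KO. It had 892, 654 and 771 counts in control and 465, 542 and 523 counts in SRRM4 KO. In CPM these were 41.1, 30.3 and 34.5 against 20.9, 22.3 and 23.8, with no overlap, and control replicate 1 was the highest. The means of 35.3 ± 5.45 and 22.3 ± 1.45 CPM (SD, n = 3 each) corresponded to a log2 fold change of -0.66 with a standard error of 0.127, a 95% interval of -0.94 to -0.39 and an adjusted p of 0.000606. IL1RAP, the accessory chain of IL1R1, averaged 62.0 ± 9.45 and 70.4 ± 2.79 CPM with a log2 fold change of 0.18 (adjusted p 0.193). Per length, IL1R1 was 0.924, 0.904 and 0.964 of IL1RAP in the control libraries and 0.496, 0.527 and 0.527 in the SRRM4 KO libraries. IL1R1 (ENSG00000115594) lies at chr2:102064544-102179874 on the plus strand.

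Of the 11 ligand genes of the IL-1 family, 3 were tested, none was called and IL18 passed by adjusted p alone. IL18, an inflammasome-processed cytokine, went from 30.2 ± 2.15 to 17.6 ± 3.18 CPM (log2 fold change -0.78, adjusted p 0.000359). Of the 11 receptor genes, 6 were tested, none was called higher, and IL1RL1 and SIGIRR were called lower, with IL1R1 the third gene lower by adjusted p. IL1RL1, the receptor of IL-33, had 40, 32 and 13 counts in control and 5, 10 and 5 counts in SRRM4 KO with a log2 fold change of -2.15 (adjusted p 0.00795). SIGIRR, an inhibitory member of the receptor family, had 30, 46 and 57 counts in control and 22, 10 and 13 counts in SRRM4 KO with a log2 fold change of -1.61 (adjusted p 0.0109, and 0.0601 without control replicate 3). IL1RL1 and SIGIRR passed the filter on low counts only through the control libraries, and IL1RL1 overlaps IL18R1, so its few reads are uncertain.

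Of 25 MyD88, IRAK and NF-kB genes, all tested, IRAK2 was called higher and IRAK3 lower. By adjusted p alone 8 rose and 1 fell, where 20.7% of all tested genes rose and 20.9% fell, and the median log2 fold change was 0.06. IRAK2, a kinase-like protein of the IL-1 receptor complex, rose from 4.03 ± 1.25 to 11.7 ± 0.340 CPM with a log2 fold change of 1.54 (adjusted p 2.48e-05). MYD88, the adaptor of the receptor, rose from 36.5 ± 0.359 to 50.0 ± 2.81 CPM with a log2 fold change of 0.46 (adjusted p 0.00131). IRAK3, an inhibitor of the same complex that passed the filter only through the control libraries, had 53, 81 and 48 counts in control and 0, 0 and 16 counts in SRRM4 KO, where edgeR gave an adjusted p of 0.00235 and DESeq2 gave 0.178. Without SRRM4 KO replicate 3, IRAK3 was at 0 in SRRM4 KO. The unequal SRRM4 KO libraries and the overlapping pseudogene RBMS1P1 leave its level uncertain. Among 12 genes for IL-1 maturation and the inflammasome, 10 were tested and NLRP3, the sensor of the best known inflammasome, was called higher. NLRP3 had 3, 13 and 0 counts in control and 92, 124 and 93 counts in SRRM4 KO, with a log2 fold change of 4.16 and an adjusted p of 3.0e-05. It passed the filter on low counts only through the SRRM4 KO libraries, and its fold rests on a control group near 0, being 5.92 on the log2 scale without control replicate 2 and 3.58 without control replicate 3. The rest of that list stayed within a log2 fold change of 1, and by adjusted p alone the list had 4 genes higher and 2 lower.

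**Figure D3:**
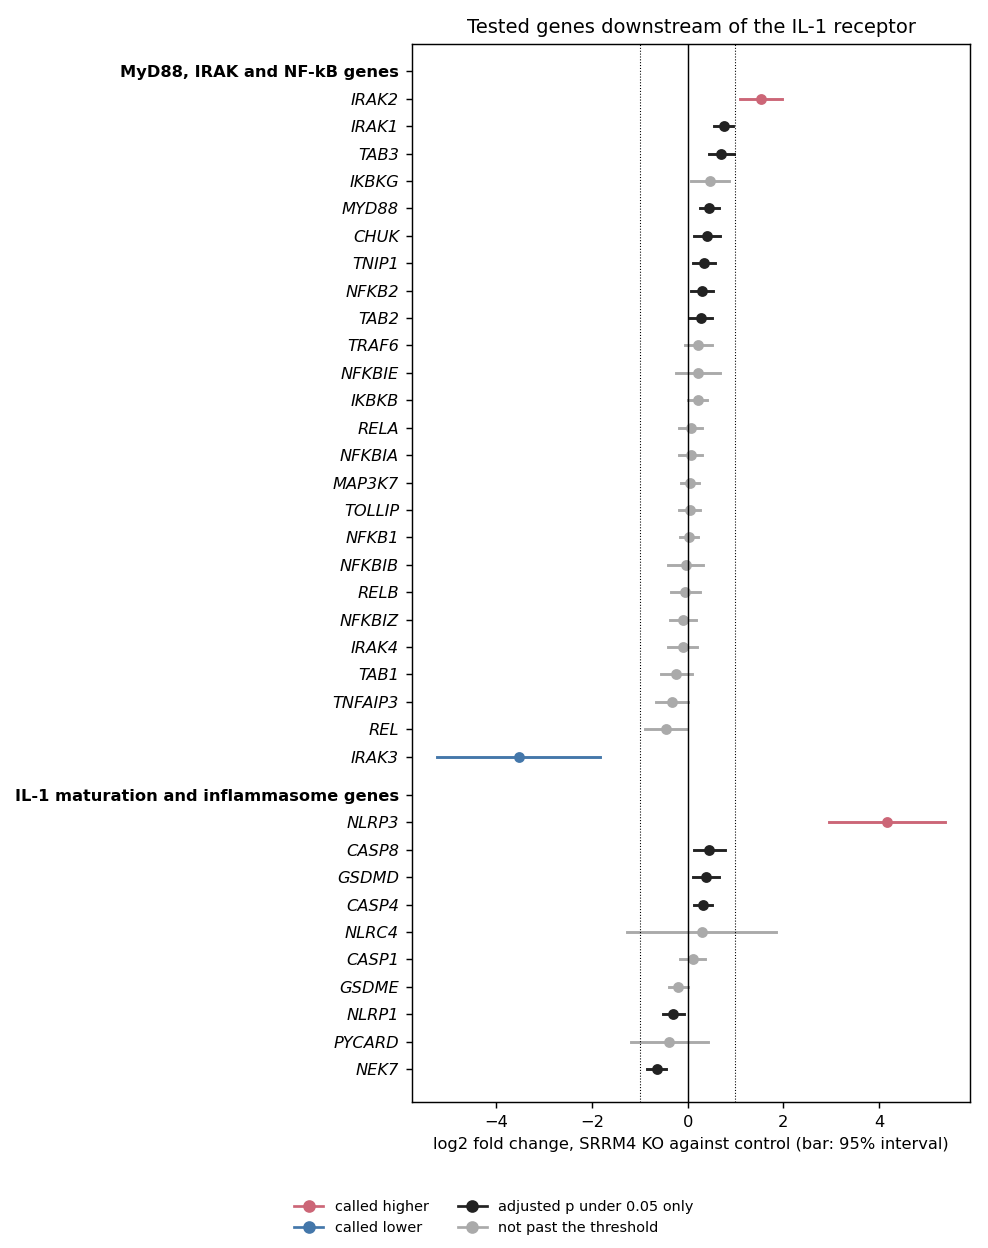
Log2 fold change of SRRM4 KO against control (x axis) with its 95% interval for the tested genes downstream of the IL-1 receptor and of IL-1 maturation, in rows. NLRP3 at 4.16, IRAK2 at 1.54 and IRAK3 at -3.53 lie beyond the dotted lines at 1, and the genes between them stay closer to 0.

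Of the stromal genes that IL-1 is known to induce, ICAM1, VCAM1 and PTGES were called lower, while most of those called higher had few counts in control. Of 26 gene entries, 14 were tested, 4 were called higher and 3 were called lower, with a median log2 fold change of 0.03. Over all tested genes, 5.45% were called higher and 7.14% lower. CXCL8, CXCL2 and MMP3 passed the filter on low counts only through the SRRM4 KO libraries, where they were high, and with at least 10 counts in every library 1 gene was called higher and 3 lower. The neutrophil chemokine CXCL8 had 8, 3 and 6 counts in control and 25, 49 and 77 counts in SRRM4 KO (log2 fold change 3.06, adjusted p 0.000473), and CXCL2 (2.32, adjusted p 0.00172), PTGS2 (1.17, adjusted p 0.00163) and MMP3 (2.62, adjusted p 0.0209) were also called higher. CXCL2 had a log2 fold change of 3.18 without control replicate 2 and of 1.99 without control replicate 3. MMP3 had 4.77 without control replicate 3 and was not called without control replicate 1, control replicate 2 or SRRM4 KO replicate 1, and PTGS2 had a log2 fold change of 0.87 without control replicate 2. The leukocyte adhesion molecule ICAM1 fell from 189 to 42.1 CPM (log2 fold change -2.17, adjusted p 2.1e-10). VCAM1, another such molecule, fell from 8.71 to 0.989 CPM (-3.13, adjusted p 1.39e-07), and PTGES, a prostaglandin E synthase, fell from 68.1 to 12.2 CPM (-2.48, adjusted p 2.14e-09).

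IL7R, which pairs with the common gamma chain for IL-7 or with CRLF2 for TSLP, was slightly higher in SRRM4 KO without passing the test. Its counts were 642, 623 and 610 in control and 827, 732 and 758 in SRRM4 KO. The CPM of 29.6, 28.9 and 27.3 against 37.1, 30.1 and 34.4 did not overlap, but SRRM4 KO replicate 2 lay close to the control libraries. The means were 28.6 ± 1.17 and 33.9 ± 3.57 CPM (SD, n = 3 each), with a log2 fold change of 0.24, a 95% interval of 0.00 to 0.48 and an adjusted p of 0.0973. CRLF2, the partner of IL7R in the TSLP receptor, was called higher and the only called gene of the 8 tested in the list of 16 IL-7, TSLP and common gamma chain genes. It had 13, 18 and 12 counts in control and 127, 91 and 93 counts in SRRM4 KO, with a log2 fold change of 2.78 and an adjusted p of 8.04e-06. TSLP itself went from 3.00 ± 0.842 to 1.61 ± 0.155 CPM (log2 fold change -0.89, adjusted p 0.0363), and IL2RG, which encodes the common gamma chain, had at most 1 count in a library. IL7R (ENSG00000168685) lies at chr5:35852695-35879603 on the plus strand.

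IL13RA2, a receptor that binds IL-13 and is regarded mainly as a decoy, had 6, 2 and 12 counts in control and 7, 5 and 9 counts in SRRM4 KO. The level was 0.302 ± 0.224 and 0.309 ± 0.102 CPM (SD, n = 3 each), too low to be tested, with an adjusted p of 0.994 when no filter was applied. IL13RA2 (ENSG00000123496) lies at chrX:115003975-115019977 on the minus strand. Of the 8 genes of the IL-13 system, 5 were tested, none was called higher and POSTN, a matrix protein known to be induced by IL-13, was called lower. POSTN fell from 131 ± 24.3 to 10.5 ± 1.61 CPM (log2 fold change -3.65, adjusted p 7.92e-11). The signalling chains IL4R and IL13RA1 averaged 39.8 and 269 CPM in control and 29.9 and 246 CPM in SRRM4 KO, with log2 fold changes of -0.41 (adjusted p 0.0105) and -0.13 (adjusted p 0.194).

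Among 34 other interleukin and receptor genes, 16 were tested, IL17RD was called higher, and IL20RA, IL17D, IL26 and IL32 were called lower. Their log2 fold changes were 1.69 for IL17RD, -2.59 for IL20RA, -1.41 for IL17D (which overlaps AL161772.1), -1.38 for IL26 and -1.05 for IL32 (-0.96 without control replicate 2). Over all tested genes, 5.45% were called higher and 7.14% lower.

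Ordered by CPM per kilobase of exon in control, the members ran from IL6ST (62.6) through LIF (9.50), IL1R1 (4.99), IL7R (4.72), LIFR (3.45), IL11 (1.16), IL6 (0.775), IL13RA2 (0.186) and IL1B (0.119) to IL33 (0.0471). Neighbours in this order whose libraries overlapped were IL1R1 and IL7R, IL11 and IL6, and IL13RA2 and IL1B. In SRRM4 KO the order was IL6ST (38.3), LIF (18.3), IL11 (10.2), IL7R (5.59), LIFR (3.34), IL1R1 (3.15), IL6 (0.718), IL1B (0.206), IL13RA2 (0.190) and IL33 (0). Only LIFR with IL1R1 and IL1B with IL13RA2 overlapped there, so IL11 had moved from the sixth place to the third, above each of the receptors but IL6ST.

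The tested genes within 1 Mb of each member were set beside it. Around IL11, 23 of 39 neighbours had a positive and 16 a negative log2 fold change, with 4 called higher, 6 called lower and a median of 0.07, beside 3.14 for IL11. Around LIF the median of 30 genes was -0.14 and 20 were negative, the opposite sign to LIF. IL6ST had 14 neighbours with a median of -0.11 and none called, beside its own -0.71. Around IL1R1, 9 of 12 neighbours were negative with a median of -0.39, IL1RL1 among them, around IL33 it was 11 of 12 with a median of -0.41, and around IL6 it was 15 of 17 with a median of -0.36, beside -0.11 for IL6. The medians were -0.18 for 27 genes around IL1B, -0.17 for 12 around IL7R, 0.03 for 9 around LIFR and 0.17 for 4 around IL13RA2. The median over all tested genes was -0.25 on chromosome 2, which carries IL1R1 and IL1B, -0.24 on chromosome 9, which carries IL33, -0.25 on chromosome 7, which carries IL6, 0.14 on chromosome 19, -0.26 on chromosome 22, -0.06 on chromosome 5 and 0.32 on chromosome X. The part of such regional shifts in the change of IL1R1 was not tested.

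**Figure D4:**
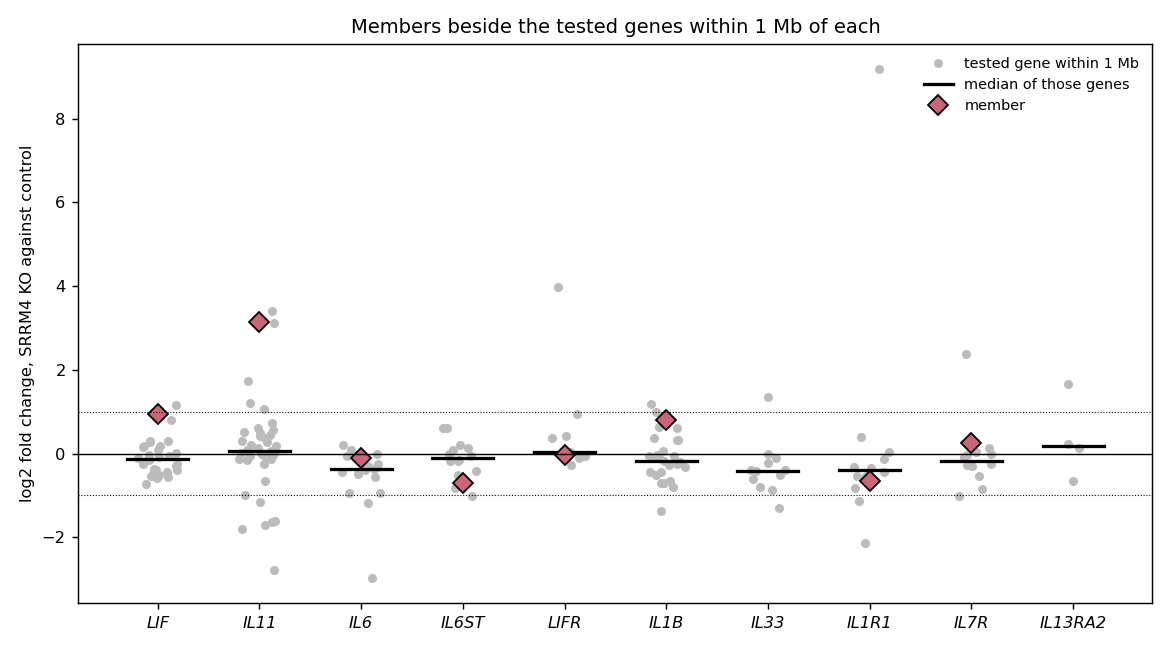
Log2 fold change of SRRM4 KO against control (y axis) for each tested member (diamond) and for every tested gene within 1 Mb of it (grey points, with their median as a bar), including the surroundings of the untested IL33 and IL13RA2. IL11 and LIF lie well above the medians of their neighbours, and IL1R1 lies close to its own, where SLC9A2 at 9.18 is the highest point.

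The direction of the 4 members that passed the adjusted p held under each alternative normalization, filter, tool and left-out library. Over these the log2 fold change ranged from 2.94 to 3.31 for IL11, from 0.79 to 1.05 for LIF, from -0.80 to -0.55 for IL6ST and from -0.77 to -0.54 for IL1R1. That of IL6 ran from -0.24 to 0.05 and that of LIFR from -0.12 to 0.02, both crossing 0, and that of IL1B from 0.55 to 1.33.

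**Figure D5:**
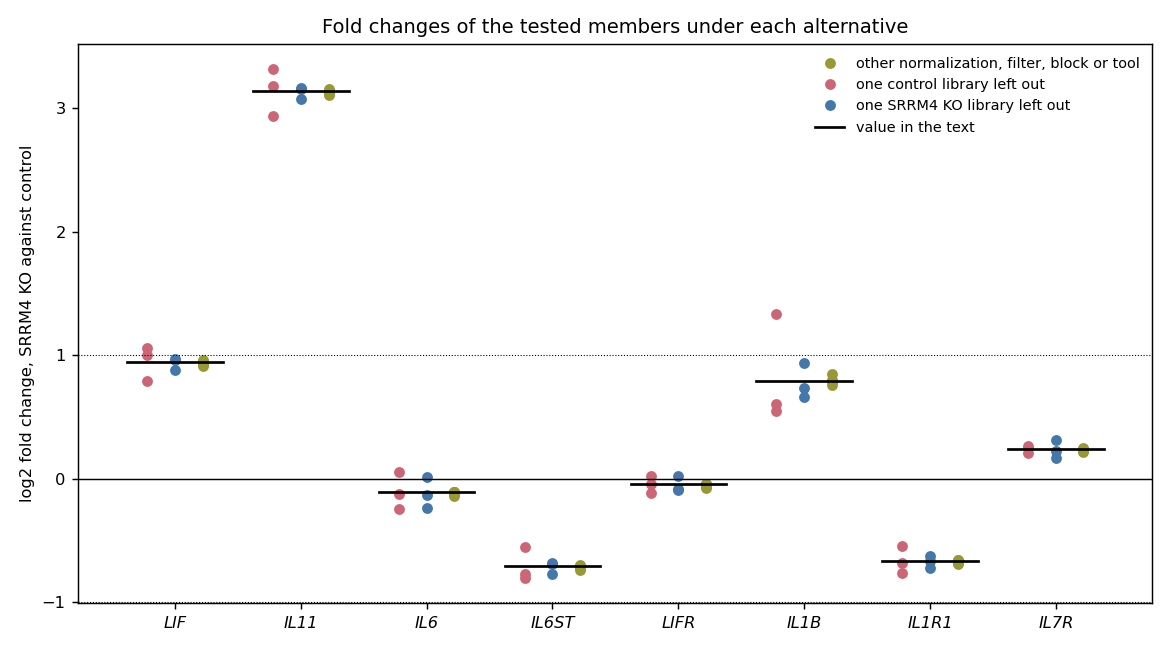
Log2 fold change of SRRM4 KO against control (y axis) of the 8 tested members with 1 library left out at a time (control and SRRM4 KO libraries in separate colours) and with other normalizations, filters, the replicate block or DESeq2. The black bar is the value given in the text, the dotted line at 1 is the fold threshold, and the points of LIF and IL1B fall on both sides of it.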

How the data were processed

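A table of unnormalized whole-number read counts for 58735 genes in 6 libraries was deposited by the authors, and 27405 of these genes had a count. The submitters' processing notes name HISAT2 2.0.5, featureCounts 1.5.0-p3 and DESeq2, and the study's methods give non-stranded mRNA-seq. All IDs were found in GENCODE release 29 (GRCh38), 58724 with the same start and end. Groups and replicate numbers came from titles and genotypes, and no column was left unassigned.

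Counts were tested with edgeR 4.0.16 (limma 3.58.1, R 4.3.3): the quasi-likelihood test with group as the only term, after filterByExpr and TMM, at a prior count of 0.125. P-values were adjusted over 15341 genes by the Benjamini-Hochberg method. Standard errors are the size of the log2 fold change over the square root of F. CPM used TMM-scaled library sizes, and per-length levels divided CPM by the kilobases of exon in the table, which equal the GENCODE exon union for the 10 members. Tables were handled with pandas 2.3.3. Total counts of 21496117 to 23868323 put 3 counts at 0.123 to 0.139 CPM. Single values were not tested by permutation, since 3 against 3 libraries cannot go below p = 0.1 exactly.

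The members and lists were chosen with earlier results of these data known. The rule names all members and, from each of 12 lists, the called genes, at most 4 per direction by mean CPM. Genes named without being called, the promoters and the neighbours named were chosen after their values were seen. Counts cover whole lists, but not every called gene is reported here. The lists held, by hand, genes of the IL-6 and IL-1 families and their signalling, IL-7, IL-13 and other interleukins, and markers of mesenchymal, blood, endothelial and epithelial cells.

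In simulated counts for this comparison with 15022 genes tested, edgeR recovered 186 of 200 genes given a log2 change of 2 and called 2 unchanged genes, and its 95% intervals covered 95.3% of true values. DESeq2 1.42.0, glmTreat, other normalizations and filters, the replicate block, no fold threshold and each library left out were the alternatives.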

Additional observations from a re-analysis of the deposited data

How the results depend on the processing

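Among all genes, the 836 called higher and 1096 called lower became 360 and 577 when glmTreat tested against a log2 fold change of 1, and 3171 and 3213 with no fold threshold. Leaving out each library gave 791 to 875 higher and 1029 to 1162 lower. Among the members, the 1 called higher (IL11) became 2 without control replicate 2, without control replicate 3 and with no fold threshold, each time by the addition of LIF, and was 1 to 2 over all left-out libraries. The 0 called lower became 2 with no fold threshold, IL6ST and IL1R1. DESeq2, which called 873 higher and 1200 lower, and the other normalizations and filters left the member counts at 1 and 0. The replicate block gave 842 higher, 1093 lower and the same member counts. The numbers were not taken to pair the libraries, since same-numbered libraries deviated together with correlations of -0.09, 0.11 and -0.10. With at least 10 counts in every library IL1B could not be fitted, and IL33 and IL13RA2 could be fitted only without the filter or by DESeq2. Depth limits IL1B, IL33, IL13RA2 and IL6, where a few reads decide the value.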
